A study of Canis lupus familiaris with 10 samples.

Results

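The 5 genes described here encode interleukin 1 alpha (IL1A), interleukin 1 beta (IL1B), the interleukin 33 receptor chain IL1RL1, serum amyloid A1 (SAA1) and the alpha chain of C4b-binding protein (C4BPA). They are 5 of the 31897 genes in the deposited table, and they were taken from the 20 top differentially expressed genes that the study listed for the circumferential pulmonary vein ablation (CPVA) group against the control group. That choice used the difference between the groups in these libraries, so each group difference below is a description, and limma's estimates and counts for these genes are not independent evidence. The libraries were made from mRNA of the target atrium of 10 beagle canines, male or female, at 6 months from surgery. The 5 canines of the CPVA group underwent right thoracotomy and point-by-point radiofrequency ablation along the root of the left pulmonary vein, and the 5 canines of the control group underwent the same thoracotomy without ablation. Each library came from a piece of atrium within reach of the ablation line, or from the matching site, so the RNA of all its cell types was mixed.

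Interleukin 1 alpha and interleukin 1 beta are inflammatory ligands that bind the same receptor and switch on NF-kappa B in the responding cell. Interleukin 1 beta is made mainly by activated myeloid cells and needs cleavage before release, whereas interleukin 1 alpha is active as a precursor and is also released from damaged cells. IL1RL1, also known as ST2, belongs to the same receptor family but binds interleukin 33, and its soluble form is a blood marker of cardiac strain. Serum amyloid A and C4b-binding protein are acute phase proteins, made above all in the liver after stimulation by interleukins 1 and 6. The former associates with high-density lipoprotein, and the latter holds back the classical complement pathway.

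Levels are given as FPKM, in which the fragments on a gene are scaled to its length and to the fragments counted in that library. This adjusts for gene length and depth, but not for differences in make-up between libraries. Library totals worked out from these values lay between 15120163 reads in CPVA3 and 25592249 reads in CPVA2. CPVA3 also stood apart in its make-up, since its 10 most abundant genes held 17.7% of its reads, against 24.7% to 32.5% in the other 9 libraries. Median-of-ratios scaling, run as an alternative for limma, gave CPVA3 the largest factor, 1.24, and CPVA2 a factor of 1.08. With it, log2 fold changes, CPVA minus control, were 2.48 for IL1A and 3.08 for IL1B, against 2.53 and 3.13 without it. Levels and ratios between libraries below are unscaled, and the part of this difference in them was not tested. A floor of 3 reads corresponded to between 0.0552 FPKM for C4BPA in CPVA2 and 0.187 FPKM for IL1A in CPVA3. Intervals and floors cover counting error only, and they take each read as an independent molecule. Copies made by PCR are not independent molecules, so where such copies are present the intervals are too narrow.

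All 5 genes were high in CPVA3, lower but still high in CPVA2, and close to the limit of detection in the other 8 libraries, ablated or not. The mean of the CPVA group was between 78.1-fold (IL1A) and 244-fold (C4BPA) that of the control group. CPVA2 and CPVA3 together held between 99.5% (IL1RL1) and 99.9% (IL1B) of all FPKM in the 5 CPVA libraries. In bulk tissue, fewer cells of a type and less RNA per cell cannot be told apart.

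**Figure D1:**
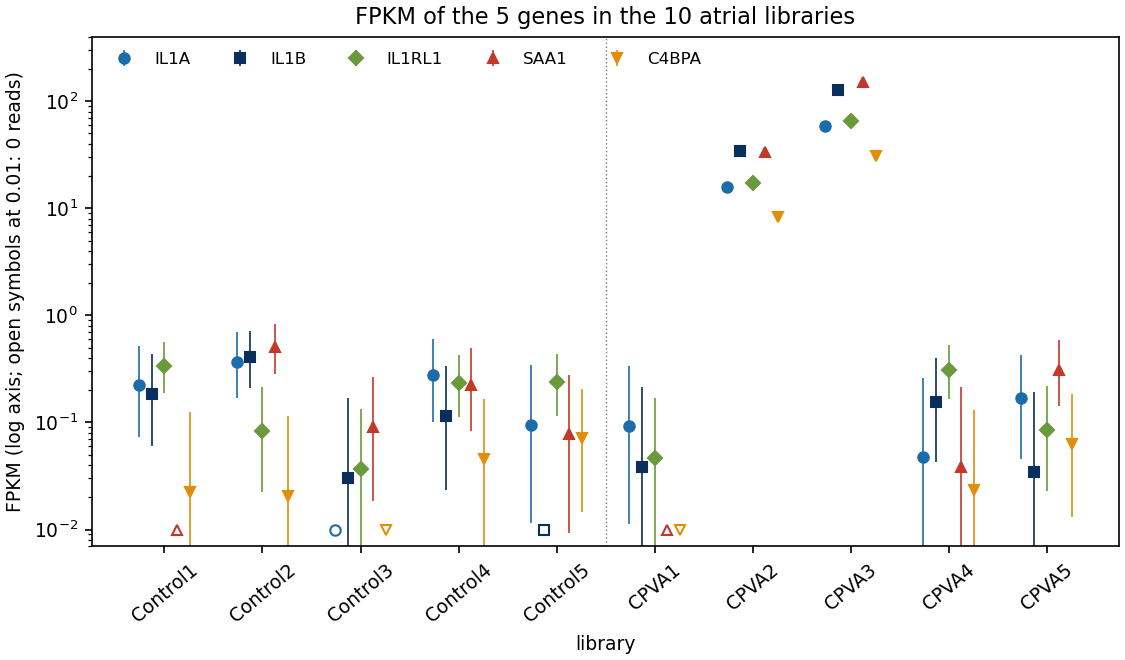
FPKM (log axis) of IL1A, IL1B, IL1RL1, SAA1 and C4BPA in each of the 5 control and 5 CPVA libraries, with exact 95% Poisson intervals of the read count; open symbols at the bottom mark 0 reads. CPVA2 lies between 8.21 and 34.1 FPKM and CPVA3 between 30.7 and 152.6 FPKM, while no other library exceeds 0.505 FPKM for any of the 5 genes.

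IL1B (ENSCAFG00000007249) was the more abundant of the 2 interleukins in CPVA2 and CPVA3. It had 0.186, 0.409, 0.0305, 0.114 and 0 FPKM in Control1 to Control5. In CPVA1 to CPVA5 it had 0.0383, 34.1, 127.9, 0.156 and 0.0348 FPKM. The groups overlapped, since CPVA1, CPVA4 and CPVA5 lay within the range of the control group and only CPVA2 and CPVA3 lay above it. The read counts behind these values were 2480 in CPVA3, 1119 in CPVA2 and at most 12 in any other library. CPVA3 was 313-fold and CPVA2 83.4-fold above Control2, the highest of the other 8 libraries.

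IL1A (ENSCAFG00000007245) had 0.224, 0.371, 0, 0.277 and 0.0948 FPKM in Control1 to Control5, a mean of 0.193 ± 0.147 FPKM (SD, n = 5). In CPVA1 to CPVA5 it had 0.0925, 15.9, 59.3, 0.0471 and 0.168 FPKM, a mean of 15.1 ± 25.6 FPKM (SD, n = 5). The order was that of IL1B at the top, with CPVA3 followed by CPVA2 and then Control2, and the remaining CPVA libraries again lay inside the control range. CPVA3 reached 160-fold the level of Control2. Control3 had 0 reads of IL1A and 1 read of IL1B, and was thus among the lowest libraries for both ligands.

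IL1RL1 (ENSCAFG00000002142) had 0.340, 0.0832, 0.0372, 0.233 and 0.239 FPKM in Control1 to Control5. Its values in CPVA1 to CPVA5 were 0.0467, 17.4, 65.5, 0.309 and 0.0849 FPKM. It was the only one of the 5 genes with reads in all 10 libraries, with 2 to 15 reads outside CPVA2 and CPVA3. The third highest library was Control1, in which IL1A and IL1B had only 5 reads each, so the receptor gene did not share the order of the ligands at low levels.

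SAA1 (ENSCAFG00000015205) had the largest value of the 5 genes, 152.6 FPKM in CPVA3, followed by 33.6 FPKM in CPVA2. It had 0 FPKM in CPVA1, 0.0385 FPKM in CPVA4 and 0.310 FPKM in CPVA5, against 0, 0.505, 0.0904, 0.226 and 0.0775 FPKM in Control1 to Control5. The mean was 37.3 ± 66.1 FPKM after CPVA, against 0.180 ± 0.199 FPKM in controls (SD, n = 5 each). The SD of the CPVA group exceeded its mean, as it did for each of the 5 genes. In RefSeq's annotation of the dog assembly UU_Cfam_GSD_1.0, the gene next to SAA1 on one side carries the synonym SAA, and 2 genes carry it in all. Reads shared with such copies may have been split between them or left out, so the level of SAA1 is uncertain in this respect.

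C4BPA (ENSCAFG00000024982) was the least abundant of the 5 genes. It had 0.0224, 0.0206, 0, 0.0461 and 0.0711 FPKM in Control1 to Control5, which rest on 7 reads in all and at most 3 reads in a library. In CPVA1 to CPVA5 it had 0, 8.21, 30.7, 0.0235 and 0.0631 FPKM. CPVA3 and CPVA2 again stood above the control range and the other CPVA libraries did not. The group means were 7.80 ± 13.3 FPKM and 0.0320 ± 0.0272 FPKM (SD, n = 5 each). It was also the only one of the 5 genes whose mean in the control group alone was under 0.1 FPKM, the filter on low values, which it passed through CPVA2 and CPVA3.

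Relative to the other genes tested, the 5 genes stood in the upper part of the distribution in CPVA3 and CPVA2 and in its lowest part elsewhere. In CPVA3, SAA1 was above 97.4% of the 19222 genes tested, IL1B above 96.7%, IL1RL1 above 93.5%, IL1A above 92.8% and C4BPA above 85.3%. In CPVA2 these shares ran from 63.0% for C4BPA to 89.0% for IL1B. In Control2, which had the highest SAA1 of the control group, SAA1 was above 20.2% of the genes.

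On the log2(FPKM + 0.1) scale, limma gave log2 fold changes, CPVA minus control, of 3.13 (SE 1.88) for IL1B, 3.08 (SE 1.91) for SAA1, 2.75 (SE 1.52) for C4BPA, 2.66 (SE 1.59) for IL1RL1 and 2.53 (SE 1.61) for IL1A. Their median was 2.75, and the median over all genes tested was 0.08. A log2 fold change of at least 1 was found for 5 of the 5 genes and for 7.56% of all genes tested, and nothing is read from this share because the genes were chosen on it. At an adjusted p under 0.05 with limma, 0 of the 5 genes and 0.0% of all genes were called. Unadjusted, 0 of the 5 genes had a limma p under 0.05, a count that was 3 without CPVA1 and 1 without CPVA4. Over all genes tested, it was 1434 of 19222, 2628 of 19331 without CPVA1 and 1234 of 19232 without CPVA4. The study's own count test gave all 5 genes an adjusted p under 0.05 and larger log2 fold changes. Those values came from counts and these from averaged log values, so the 2 sets are unlike measures. In 0 of the 5 genes was every CPVA library above every control library, a pattern seen in 0.713% of all genes tested.

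The difference between the groups rested on the libraries CPVA2 and CPVA3. Without CPVA3, the ratio of the group means changed from 219 to 58.0 for IL1B, from 78.1 to 20.9 for IL1A, from 89.5 to 23.9 for IL1RL1, from 207 to 47.1 for SAA1 and from 244 to 64.7 for C4BPA. Without CPVA2 it stayed between 77.1 (IL1A) and 240 (C4BPA). With both left out, an alternative chosen after seeing the data, the ratio was 0.531 for IL1A, 0.516 for IL1B, 0.788 for IL1RL1, 0.645 for SAA1 and 0.901 for C4BPA.

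Each remaining CPVA library was also set against the pooled reads of the control group. IL1B in CPVA1 was 0.257 of the pooled control level, with a 95% interval from 0.0062 to 1.60. In CPVA4 this ratio was 1.05 (0.261 to 3.099), and in CPVA5 it was 0.233 (0.00564 to 1.45). For the 5 genes in these 3 libraries, the intervals included 1 with a single exception, SAA1 in CPVA1, where 0 reads gave an upper bound of 0.821. Control1 also had 0 reads of SAA1, so this value lay within the spread of the control group. A difference from the control group was therefore not detectable at this depth in CPVA1, CPVA4 and CPVA5.

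The balance of the 2 interleukins was taken as the IL1A share of the summed FPKM of IL1A and IL1B, which corrects for gene length. In CPVA2 the share was 31.8% (exact Clopper-Pearson 95% interval 29.4% to 34.2%, from 431 and 1119 reads). In CPVA3 it was 31.7% (30.0% to 33.3%, from 951 and 2480 reads). The level of IL1B in CPVA2 was 0.267 of that in CPVA3, yet the shares of the 2 libraries differed by less than the counting error, and IL1B stood at 2.15 and 2.16 times the FPKM of IL1A.

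In the control group, the pooled reads of IL1A and IL1B were nearer to parity than in CPVA2 and CPVA3. The shares of single libraries, with few reads behind them, ran from 0% to 100%. The share was 54.7% in Control1, 47.5% in Control2 and 70.7% in Control4. Control3 held a single IL1B read and Control5 held 2 IL1A reads, which gave shares of 0% and 100% with intervals of 0% to 97.9% and 18.5% to 100%. The pooled control reads, 22 of IL1A and 21 of IL1B, gave 55.9% with an interval of 39.9% to 70.8%, above the intervals of CPVA2 and CPVA3. Pooling sets aside the spread between canines, however, and the mean of the control shares was 54.6% ± 36.6 (SD, n = 5), a spread that contains the values of CPVA2 and CPVA3.

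In the other CPVA libraries the balance was not resolved at this depth. The IL1A share was 70.7% in CPVA1 (11.2% to 99.3%), 23.2% in CPVA4 (0.610% to 75.3%) and 82.9% in CPVA5 (32.4% to 99.6%), each from 3 to 5 reads. The intervals of all 3 overlap those of CPVA2 and CPVA3, in CPVA5 only from 32.4% upwards. The mean over the CPVA group was 48.0% ± 26.8 (SD, n = 5). In the RefSeq annotation, IL1A and IL1B are neighbouring protein-coding genes, and a long non-coding RNA, LOC119869713, overlaps both. Whether the counting used strand is not given in the sources used here, so reads from the long non-coding RNA cannot be told apart from those of the interleukin genes.

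**Figure D2:**
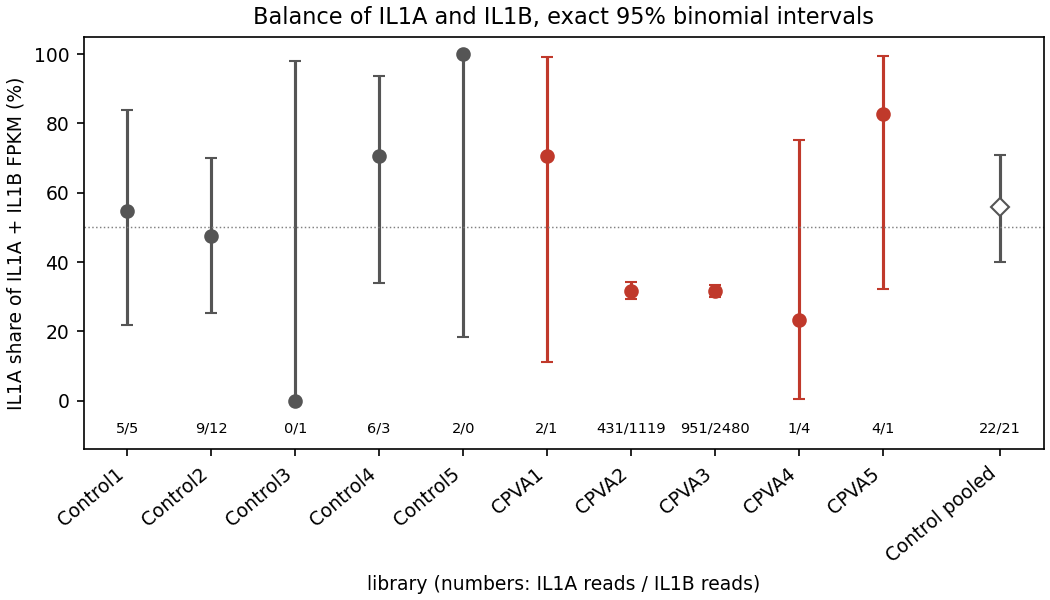
IL1A share (%) of the summed FPKM of IL1A and IL1B in each library and in the pooled control reads (open diamond), with exact 95% binomial intervals; the counts along the bottom are IL1A and IL1B reads. CPVA2 and CPVA3 lie at 31.8% and 31.7% with narrow intervals, while the other 8 libraries range from 0% to 100% with wide intervals.

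The acute phase genes were high in the same 2 libraries as the interleukins. SAA1 had 0.984 times the FPKM of IL1B in CPVA2 (95% interval 0.905 to 1.07) and 1.19 times in CPVA3 (1.13 to 1.26). These intervals do not overlap, so SAA1 was higher relative to IL1B in CPVA3 than in CPVA2 beyond counting error. C4BPA had 0.241 times the FPKM of IL1B in CPVA2 (0.215 to 0.269) and 0.240 times in CPVA3 (0.223 to 0.259), which agree within sampling noise. The same was true of the receptor gene IL1RL1, with ratios of 0.510 (0.467 to 0.557) and 0.512 (0.483 to 0.543). These intervals compare 2 libraries, not the conditions.

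Where the interleukins were low, the reads were too few to show whether the ratio of C4BPA to IL1B held. For SAA1, the interval of Control1 lay below that of CPVA3, and the interval of CPVA5 lay above that of CPVA2. Both rest on few reads and go in opposite directions, and the intervals of the remaining low libraries overlapped those of CPVA2 and CPVA3. The ratio of IL1RL1 to IL1B was 1.83 in Control1 (0.632 to 6.44) and 1.98 in CPVA4 (0.612 to 8.345). IL1B had 5 and 4 reads there, and both intervals lie above those of CPVA2 and CPVA3. Control5, with 10 reads of IL1RL1 and 0 of IL1B, had a lower bound of 1.37, also above them. In each of the other low libraries, the interval for IL1RL1 overlapped both. Control2 had the most IL1A, IL1B and SAA1 of the 8 other libraries, with 9, 12 and 15 reads, and a SAA1 to IL1B ratio of 1.24 (0.540 to 2.89), but it had 1 read of C4BPA. Control1 had 5 reads of each interleukin and 0 reads of SAA1, whereas CPVA5 had 1 read of IL1B and 9 reads of SAA1. The interval of SAA1 to IL1B in Control1 ran from 0 to 1.08, which overlaps that of CPVA2. The ratio of SAA1 to IL1B was 8.90 in CPVA5, with an interval from 1.23 to 390 that rests on 1 read of IL1B; it lies above the interval of CPVA2 and overlaps that of CPVA3. C4BPA had its highest value among these 8 libraries in Control5, with 3 reads, where IL1B had 0 reads. With at most 3 reads of C4BPA in any of them, whether C4BPA followed the interleukins there was not detectable at this depth.

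**Figure D3:**
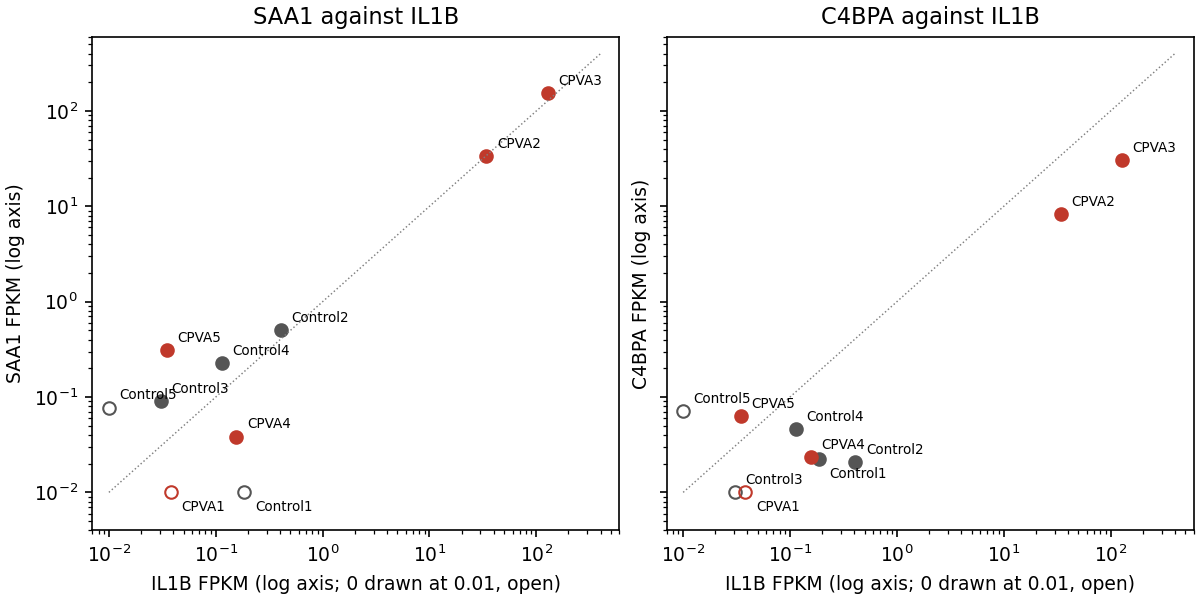
FPKM of SAA1 (left) and C4BPA (right) against FPKM of IL1B, both on log axes, with 1 point per library (grey, control; red, CPVA); the dotted line marks equal FPKM, and a value of 0 is drawn at 0.01 with an open symbol. CPVA2 and CPVA3 sit apart at the upper right, near the line for SAA1 (ratios 0.984 and 1.19) and below it for C4BPA (0.241 and 0.240), and the other libraries scatter at the lower left.

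Set against each other, IL1A, IL1B, IL1RL1 and C4BPA kept nearly fixed proportions in CPVA2 and CPVA3, and SAA1 did not. In the 6 pairs of genes without SAA1, the ratio of FPKM changed by 0.193% to 0.858% between the 2 libraries, and the 95% intervals overlapped in 6 of 6 pairs. In the 4 pairs with SAA1 it changed by 17.7% to 21.8%, and the intervals overlapped in 0 of 4 pairs. Whether the material of CPVA2 and CPVA3 was independent in these genes was not tested. In CPVA3 the order of levels was SAA1, IL1B, IL1RL1, IL1A and C4BPA, with each neighbour separated beyond counting error. In CPVA2 the order of IL1B and SAA1 could not be told apart, nor could that of IL1RL1 and IL1A (ratio 1.10, interval 0.977 to 1.23).

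The level in CPVA2 relative to CPVA3 was 0.268 for IL1A, 0.267 for IL1B, 0.265 for IL1RL1 and 0.267 for C4BPA. For SAA1 it was 0.220, with a 95% interval of 0.205 to 0.236 that lies below those of IL1B (0.248 to 0.286), IL1RL1 (0.246 to 0.287), IL1A (0.238 to 0.300) and C4BPA (0.238 to 0.299). Of the same list, CRB2 had a ratio of 0.220 (0.170 to 0.283), CSF3, the granulocyte colony-stimulating factor gene, had 0.209 (0.198 to 0.220), and OLR1 had 0.239 (0.219 to 0.259). The interval of SAA1 overlapped each of these 3, so its lower ratio was not particular to it.

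**Figure D4:**
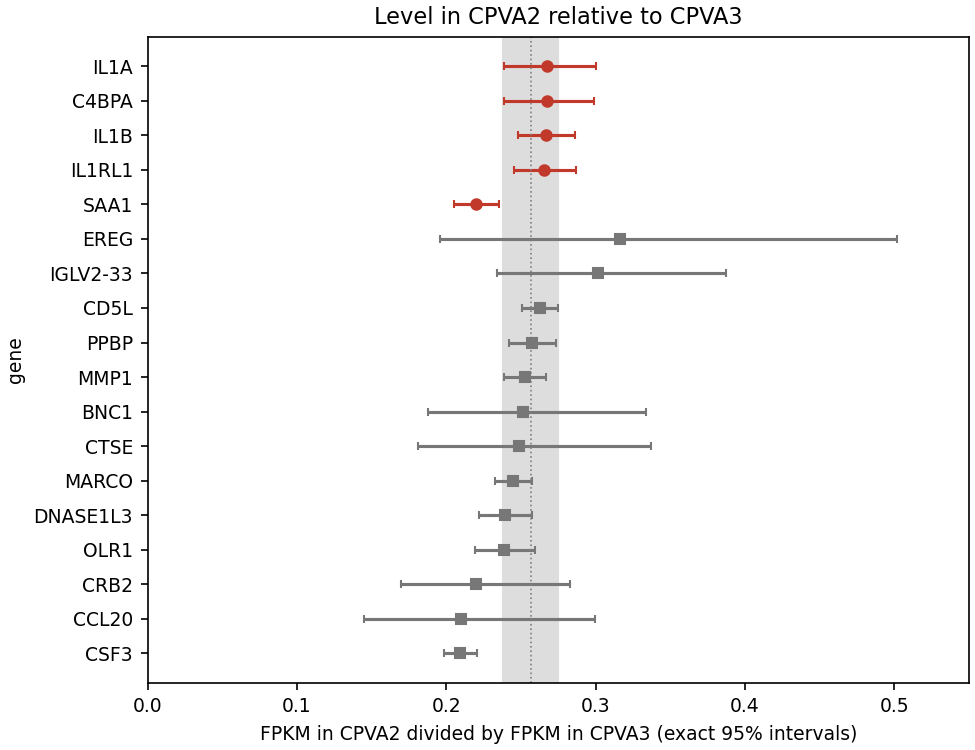
FPKM in CPVA2 divided by FPKM in CPVA3, with exact 95% intervals of the read counts, for the 5 genes (red circles) and the 13 other listed genes that were higher in CPVA3 than in CPVA2 (grey squares); the band spans the quartiles (0.238 to 0.275) of the 126 genes whose CPVA3 level was 20 times that of every library except CPVA2 or more, on 100 reads or more. IL1A, IL1B, IL1RL1 and C4BPA lie between 0.265 and 0.268, and SAA1 lies at 0.220.

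High levels in CPVA3 and CPVA2 were not limited to the 5 genes. An order with CPVA3 first and CPVA2 next was found in 5 of the 5 genes and in 16.4% of the 19222 genes tested. A level in CPVA3 of at least 20 times that of each library other than CPVA2, with at least 100 reads, was reached by 5 of the 5 genes and by 0.655% of the genes tested, which are 126 genes. In these 126 genes, the ratio of CPVA2 to CPVA3 ran from 0.120 to 0.335 with a median of 0.257. In the 11197 genes tested that had at least 100 reads in CPVA3, its median was 0.845. Among those 11197 genes, C4BPA ranked 5, IL1B ranked 7, SAA1 ranked 8, IL1RL1 ranked 10 and IL1A ranked 14 by the fold of CPVA3 over the highest of the 8 libraries other than CPVA2. The list they come from was chosen for large differences, so these ranks are a description.

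Listed genes used as markers of cell types were high in the same 2 libraries as the 5 genes. The study chose them on the same difference between the groups in these libraries, so this pattern is a description. The study's list holds 4 genes used here as markers, and the macrophage genes CD5L and MARCO had 6007 and 5343 reads in CPVA3 and 2671 and 2214 reads in CPVA2, with at most 6 and 11 reads in any other library. The epithelial and mesothelial gene BNC1 had 167 and 71 reads in these 2 libraries and at most 7 elsewhere, and the immunoglobulin light chain gene IGLV2-33 had 190 and 97 reads and at most 2 elsewhere. None of the 4 markers was at 0 in CPVA2 or CPVA3. In CPVA1, 4 of 4 were at 0, as were SAA1 and C4BPA, but IL1A had 2 reads, IL1B 1 and IL1RL1 2. In Control1, SAA1 had 0 reads while CD5L had 3, MARCO 8, BNC1 2 and IGLV2-33 1. In Control5, MARCO, BNC1 and IGLV2-33 were at 0 and CD5L had 3 reads. In Control3, CD5L and IGLV2-33 were at 0. Single markers were at 0 in Control2, Control4, CPVA4 and CPVA5. What part the cells of these markers had in the levels of the 5 genes was not tested. The labelled tissue was not checked against markers of atrial muscle, because only the 20 listed genes have a symbol in the tables used here.

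Likeness to the other genes was described by Pearson's r on log2(FPKM + 0.1) over the 10 libraries, which is set almost entirely by CPVA2 and CPVA3. Between the 5 genes, r ran from 0.942 (SAA1 and IL1RL1) to 0.985 (C4BPA and IL1RL1). Over ranks, which give the 8 low libraries more weight, Spearman's rho ran from 0.310 for the same pair of SAA1 and IL1RL1 to 0.790 for C4BPA and IL1RL1. IL1A and IL1B had a rho of 0.782, SAA1 had a rho of 0.729 with IL1A and 0.511 with IL1B, and C4BPA had 0.626 and 0.347. The order of the libraries was thus shared more closely by the 2 ligands than by C4BPA and IL1B, with the low read counts given above behind most ranks.

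Among the other genes of the study's list, CSF3 and IGLV2-33 were the most like IL1B (r = 0.997 and 0.994), and the same 2 genes were the most like IL1A (0.986 and 0.993). CD5L and CCL20, a chemokine gene, were the most like IL1RL1 (0.990 and 0.981). CCL20 and CD5L were also the most like C4BPA, with an r of 0.996 each. For SAA1 they were OLR1, which encodes a receptor for oxidised low-density lipoprotein, and CSF3 (0.988 and 0.979). Over all 19217 other genes tested, 773 genes (4.02%) had a mean r with the 5 genes of at least 0.9, and the highest mean r belonged to CD5L and IGLV2-33 (0.985 each).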

How the data were processed

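The authors deposited 1 FPKM value per gene and library, scaled for gene length and library total. Their processing notes name CASAVA, HISAT2 and featureCounts and the build CanFam3.1; versions are not given in the sources used here. All 10 columns were matched to samples by title. Since FPKM derive from whole reads, the reads, the length of each gene and the total of each library were worked out as the smallest whole numbers that give the deposited values, for all 27638 genes with reads; the method was tested on simulated data. For the 5 genes, the lengths were between 1061 and 2123 bases. The CPVA and control libraries were compared on log2(FPKM + 0.1) by limma 3.58.1 (lmFit, eBayes with trend; R 4.3.3), a test for log values that stands in for the count test of the study. The fit covered genes whose mean FPKM reached 0.1 and used the study's thresholds, with Benjamini-Hochberg adjustment. Exact 95% intervals (Clopper-Pearson for shares and ratios, Poisson for reads) were computed in Python 3.11.15 with scipy 1.17.1. No pair of libraries held identical values. Nothing beyond the design says how the libraries were handled, so limma's p-values measure the spread between these libraries. Alternatives covered the pseudocount, the filter, scaling, the replicate number as a block and leaving out each library.

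The 5 genes, the gene lists and the comparisons were chosen with earlier results of these data known. By the rule for named genes, these were the 5 genes, the 2 listed genes most like each of them, and the 2 genes of highest mean r over the table; CRB2, CSF3 and OLR1 were set beside SAA1 in the comparison of CPVA2 with CPVA3 after their values were seen. Symbols came from the study's list of 20 genes. RefSeq's gene table of UU_Cfam_GSD_1.0 paired 0 Ensembl identifiers with symbols and was used only for neighbouring genes, matched by symbol for 5 of 5 genes. Lists of further interleukin 1 pathway, acute phase and cell type marker genes were therefore not analysed here.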

Additional observations from a re-analysis of the deposited data

Results flagged for a closer look

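For each of the 5 genes, the linear FPKM of CPVA3 was far from the 4 remaining CPVA values: its gap to CPVA2 as a share of the range of the group exceeded 0.71, Dixon's critical value for 5 libraries at 95%. The gap was 0.733 of the range for IL1A, 0.734 for IL1B, 0.735 for IL1RL1, 0.78 for SAA1 and 0.733 for C4BPA. These are 5 of 12 groups of libraries examined (the 5 genes and the IL1A share in each group), against 0.6 given by chance at about 1 in 20 groups, and they are not independent, since they share 1 library and come from a list chosen for its differences. On log2(FPKM + 0.1), 0 of the 10 groups of gene values passed, and the gap between CPVA3 and CPVA2 was between 0.193 (IL1B) and 0.229 (C4BPA) of the range.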

How the results depend on the processing

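The number of the 5 genes called with limma was 0 in each fit run. At an unadjusted limma p under 0.05 it was 3 without CPVA1, 1 without CPVA4 and 0 in each of the other fits. Over all genes tested, the unadjusted count was 1434 of 19222 in the main fit, 2628 of 19331 without CPVA1 and 1234 of 19232 without CPVA4. The number of all genes called was 0, and it was 1 with median-of-ratios scaling, with 0.01 as the pseudocount and with CPVA2 and CPVA3 both left out; leaving out each library in turn gave from 0 to 4 genes, the highest being 4 without CPVA1 and 3 without Control4, and 1 in each fit that lacked CPVA5, Control1 or Control3. With the replicate number as a block, 0 genes and 0 of the 5 genes were called; same-numbered libraries did not deviate together (correlations from -0.1985 to 0.0893), and 0 of 10 libraries correlated best with their own number. The log2 fold changes kept their sign under each pseudocount, filter, scaling, block and single library left out, with the lowest values without CPVA3 (1.20 for IL1A to 1.60 for IL1B). With CPVA2 and CPVA3 both left out, they were -0.39 for IL1A, -0.32 for IL1B, -0.24 for IL1RL1 and -0.38 for SAA1, while C4BPA no longer passed the filter; the ratios of means were 0.531, 0.516, 0.788, 0.645 and, for C4BPA, 0.901. These changes follow from leaving out the libraries that hold nearly all reads of the 5 genes. Taken from reads without gene length, the IL1A share was 27.8% in CPVA2 and 27.7% in CPVA3, and the ratio of C4BPA to IL1B was 0.399 and 0.398. Against IL1A plus IL1B, the ratio was 0.672 and 0.815 for SAA1 and 0.164 in both libraries for C4BPA. The IL1A share of the CPVA group was 31.7% when taken from summed FPKM in place of the mean of 48.0%. The median r of 0.976 between the 5 genes was 0.619 with Spearman's rho.

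Depth limits the balance and the ratios outside CPVA2 and CPVA3, where each of the 5 genes had at most 15 reads.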
